A study of Sus scrofa with 12 samples.

Results

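Thioredoxin-interacting protein (TXNIP) and 8 genes linked to it were followed through the induction of porcine induced pluripotent stem cells (piPSCs) toward endothelial cells. The listed genes were the alpha-arrestins TXNIP, ARRDC4, ARRDC3 and ARRDC2, the thioredoxins TXN and TXN2, the thioredoxin reductase TXNRD1, and the transcription factors MLXIP and MLXIPL. They were looked up by Ensembl pig symbol among the 19681 gene identifiers of the expression tables, of which 13998 carried a symbol. Of the 9 genes, 8 were found. TXN, the cytosolic thioredoxin, was matched to no identifier and has no value here. The set was chosen by the measured FPKM of TXNIP, which had been seen to be far lower on day 4 than on day 2. TXNIP is therefore described without a test at every step of the induction, and no member is tested between those 2 days.

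Alpha-arrestins are adaptor proteins that bring ubiquitin ligases of the NEDD4 family to membrane proteins. TXNIP, the best known of them, binds reduced thioredoxin and inhibits it, and it also lowers glucose uptake by driving the internalization of glucose transporters. Thioredoxin reduces oxidized proteins and is itself recharged by thioredoxin reductase at the expense of NADPH. TXNIP and ARRDC4 are textbook targets of MLXIP (MondoA) and MLXIPL (ChREBP), which bind DNA together with MLX when glucose phosphates accumulate, whereas TXNRD1 is a target of the oxidative stress factor NRF2 (NFE2L2).

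The data were RNA-seq libraries of 12 samples, 3 biological replicates (A, B and C) in each of 4 groups. IEC2, IEC4 and IEC12 were piPSCs taken 2, 4 and 12 days into endothelial induction, and AOC was a porcine endothelial cell line, so that its replicates stand for 1 line. For the induction, piPSCs were plated on Matrigel with the ROCK inhibitor Y27632 and moved to a differentiation medium without FGF2 and LIF. This medium first held CHIR99021, an activator of WNT signalling, for 2 days and then BMP4, FGF2 and VEGF for 2 days, after which the cells were kept in the endothelial medium EGM-2 with VEGF. By the study's description, IEC12 was the day 12 culture before its CD31-positive cells were sorted. The undifferentiated piPSCs and the sorted day 12 cells of the study were not analysed here. Values are FPKM, that is fragment counts divided by transcript length and by the library's mapped fragments, so levels of different genes can be set side by side. In bulk samples such as these, fewer cells of a type and less RNA per cell cannot be told apart.

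Between 8357 and 10467 genes reached an FPKM of 1 per library. The read number of each library is unknown, but steps among the lowest values put the depths at 0.616 to 1.14 times that of IEC2 replicate B. As a set, endothelial markers were abundant in AOC alone. The 10 found, of 12 listed, summed to between 296 and 421 FPKM in AOC. In IEC2 the sum was between 3.44 and 5.97, in IEC4 between 2.04 and 3.39 and in IEC12 between 0.415 and 0.590, where none reached an FPKM of 1 and both CDH5 and TIE1 were listed at 0 in every library. KDR was higher in IEC2 than in AOC, at 2.42 to 3.99 against 1.31 to 1.46 FPKM, and at 0 to 0.0374 in IEC12. PECAM1, which encodes CD31, was at 0.0197 to 0.106 FPKM in IEC12 and 91.7 to 131 in AOC. The labels of the IEC12 libraries thus have no support from these markers, although the study sorted CD31-positive cells from day 12 cultures, and every day 12 comparison rests on the labels. The pluripotency markers were lowest on day 2 of the 3 days. The 3 found, of 8 listed, summed to 0.285 to 0.664 FPKM on day 2, 7.52 to 8.80 on day 4 and 2.56 to 4.82 on day 12, and LIN28A was listed at 0 in every IEC2 library and at 3.01 to 5.86 in IEC4. The sum of the mesoderm markers was highest on day 4, but through HAND1 alone. The 7 found, of 8 listed, summed to between 9.95 and 14.1 FPKM on day 4. The sum was 5.72 to 7.86 on day 2 and 2.27 to 4.45 on day 12. Among them HAND1 was listed at 0 in every IEC2 library and at 6.38 to 9.98 in IEC4, while PDGFRA was at 3.62 to 5.13 in IEC2 and 0.217 to 0.801 in IEC4. The comparison of day 4 with day 2 rests on the labels too, and the IEC groups are named by their days only. The scaling also matters for directions. With median-of-ratios scaling in place of the FPKM as given, the median log2 difference over all genes moved from 0.20 to -0.01 for IEC4 against IEC2, from -0.15 to 0.04 for IEC12 against IEC4 and from -0.21 to -0.01 for AOC against IEC12. The share of called genes that were higher moved with it, from 66.5% to 49.6%, from 39.2% to 52.2% and from 38.2% to 51.1%, and with equal FPKM totals it was 25.6% for IEC12 against IEC4 and 36.5%, from 55.7%, for IEC12 against IEC2.

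TXNIP (ENSSSCG00000031262, chr4:99348589-99351760 in Sscrofa11.1) was high on day 2, nearly gone on day 4 and back at an intermediate level on day 12. Its FPKM was 143, 224 and 177 in IEC2 replicates A, B and C. In IEC4 it was 0.336, 0.287 and 4.86. In IEC12 it was 31.1, 33.2 and 35.2, and in AOC 14.6, 15.2 and 9.22. No library of one group reached into the range of another, and the order of the levels was IEC2, IEC12, AOC and IEC4. The group means were 181 ± 40.6, 33.2 ± 2.08, 13.0 ± 3.29 and 1.83 ± 2.63 FPKM in that order (SD, n = 3). The ratio of means was 99.1 for IEC2 over IEC4, 18.2 for IEC12 over IEC4 and 5.46 for IEC2 over IEC12.

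**Figure D1:**
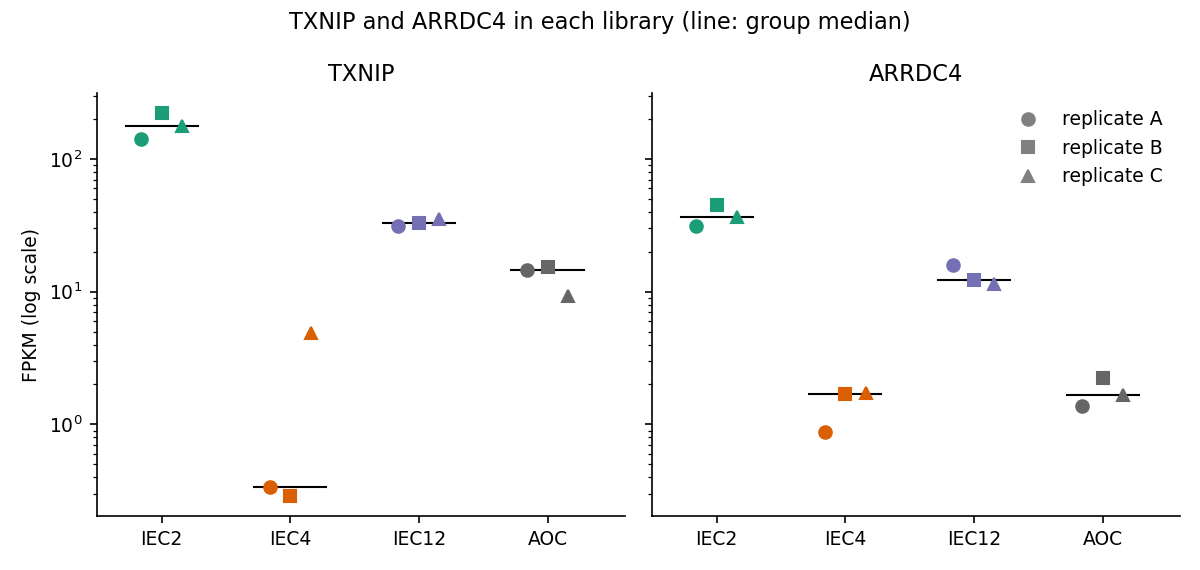
FPKM of TXNIP and ARRDC4 in each library, on a log axis, by group; points are libraries, their shape is the replicate letter and lines are group medians. TXNIP runs from 0.287 in IEC4 replicate B to 224 in IEC2 replicate B, and IEC4 replicate C, at 4.86, sits above the other IEC4 libraries.

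The rank of TXNIP within the library followed the same order of groups as its level. Among the genes detected in a library it held places 230 to 421 in IEC2, 1792 to 1865 in IEC12, 3175 to 3965 in AOC and 6587 to 12334 in IEC4. On the scale of log2(FPKM + 1), on which low genes show smaller differences than they have, its difference between IEC4 and IEC2 was -6.37, the most negative of the 10542 genes fitted. Its difference between IEC12 and IEC4 was 3.98, the 8th highest of the same genes.

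The day 4 level of TXNIP rests on libraries that differ. IEC4 replicate C held 4.86 FPKM and the other 2 held 0.336 and 0.287. Without replicate C the ratio of IEC2 over IEC4 was 581 and that of IEC12 over IEC4 was 107, both several times larger than with it. The same library stood apart in epithelial genes. The 6 epithelial markers found, of 7 listed, summed to 1495 FPKM in it, against 526 and 685 in IEC4 replicates A and B, 108 to 144 in IEC2, 41.8 to 86.6 in IEC12 and 2.25 to 4.05 in AOC. CDH1 was at 42.8 FPKM against 7.51 and 6.54, and CLDN4 at 61.1 against 7.55 and 7.34. The part of epithelial cells in the TXNIP value was not tested.

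ARRDC4 (ENSSSCG00000002252, chr7:81656760-81669584), the alpha-arrestin closest to TXNIP in its known regulation, followed the same course. Its FPKM was 31.0, 44.7 and 36.8 in IEC2, 0.872, 1.71 and 1.72 in IEC4, 15.9, 12.2 and 11.3 in IEC12, and 1.37, 2.24 and 1.67 in AOC. IEC2 and IEC12 stood apart from each other and from the rest, whereas IEC4 and AOC overlapped. The log2 difference between IEC4 and IEC2 was -3.99, the 10th most negative of all genes fitted, a ratio of means of 26.1. IEC4 replicate C did not stand apart for ARRDC4, and without that library the ratio was 29.1. ARRDC4 then rose 9.17-fold from IEC4 to IEC12 (log2 fold change 2.55, SE 0.22, adjusted p = 4.06e-05 in limma) and on day 12 was still 2.85 times below day 2 (log2 fold change -1.44, adjusted p = 0.000599). In AOC it was 7.48 times lower than in IEC12 (log2 fold change -2.36, SE 0.21, adjusted p = 1.67e-06).

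The balance of the pair varied between groups. TXNIP was 4.59 to 5.0 times the FPKM of ARRDC4 in IEC2, 1.95 to 3.11 times in IEC12 and 5.52 to 10.6 times in AOC. In IEC4 the ratio was 0.168 to 2.82, which overlapped IEC12, with ARRDC4 the higher of the pair in replicates A and B.

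The other alpha-arrestins moved little beside these. ARRDC3 (ENSSSCG00000014156, chr2:98430451-98444835), which recruits NEDD4 ligases to the beta2-adrenergic receptor, had 26.1, 18.9 and 19.7 FPKM in IEC2, 14.8, 14.7 and 14.8 in IEC4, 29.1, 28.9 and 34.1 in IEC12 and 4.41, 17.7 and 16.5 in AOC. The 3 induction days did not overlap, with day 12 highest and day 4 lowest. ARRDC3 rose 2.08-fold from IEC4 to IEC12 (log2 fold change 1.004, SE 0.15, adjusted p = 0.000835), and its rise from IEC2 to IEC12 was smaller (log2 fold change 0.50, adjusted p = 0.0236, and 0.00841 to 0.313 over the alternatives). That last call was lost with median-of-ratios scaling (0.48), with equal totals (0.23) and without IEC2 replicate B (0.42), IEC2 replicate C (0.45), IEC12 replicate B (0.54) or IEC12 replicate C (0.42). AOC lay below IEC12 by 1.39 on the log2 scale (SE 0.37, adjusted p = 0.00646). AOC replicate A, at 4.41, was far below the other AOC libraries, and without it the difference was -0.81 (adjusted p = 0.00157, and 0.00157 to 0.0383 over all alternatives).

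ARRDC2 (ENSSSCG00000013893, chr2:59771104-59778500), a relative whose role is less well known, was the only member that passed the test as higher in AOC than in IEC12, joined by MLXIP with median-of-ratios scaling. It had 1.52, 2.39 and 1.23 FPKM in IEC2, 2.78, 1.73 and 2.18 in IEC4, 1.21, 1.55 and 1.08 in IEC12 and 2.75, 3.70 and 3.93 in AOC. AOC lay above all IEC12 libraries (log2 fold change 0.96, SE 0.20, adjusted p = 0.0013). IEC12 also lay below all IEC4 libraries, but that difference did not pass the test (log2 fold change -0.50, adjusted p = 0.083), except with equal FPKM totals (adjusted p = 0.0448, and 0.0448 to 0.231 over the alternatives).

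TXNRD1 (ENSSSCG00000000843, chr5:80170334-80213889), the cytosolic enzyme that reduces thioredoxin, was abundant early in the induction, at places 149 to 400 of the detected genes in IEC2 and 110 to 182 in IEC4. Its FPKM was 148, 237 and 311 in IEC2, 370, 336 and 267 in IEC4, 63.8, 106 and 155 in IEC12 and 51.5, 49.4 and 37.2 in AOC. IEC2 and IEC4 overlapped, IEC12 lay below all IEC4 libraries, and AOC below all IEC12 libraries. TXNRD1 fell by 1.65 on the log2 scale from IEC4 to IEC12 (SE 0.33, adjusted p = 0.00368) and was lower again in AOC than in IEC12 (log2 fold change -1.14, SE 0.32, adjusted p = 0.0086). Against IEC2 the day 12 difference was -1.12 (adjusted p = 0.0221), but these groups overlapped and the adjusted p ran from 0.00635 to 0.0855 over the alternatives. The call was lost without a filter on low values and without IEC2 replicate B (-1.07), IEC2 replicate C (-0.88), IEC12 replicate A (-0.79) or IEC12 replicate B (-1.15). The FPKM of TXNRD1 was 1.04 to 1.76 times that of TXNIP in IEC2, 55.0 to 1172 times in IEC4, 2.05 to 4.39 times in IEC12 and 3.24 to 4.04 times in AOC.

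TXN2 (ENSSSCG00000000144, chr5:11264470-11289388), the thioredoxin of mitochondria, varied within a narrow range. Its FPKM was 35.9, 27.8 and 26.3 in IEC2, 32.0, 27.4 and 31.7 in IEC4, 37.3, 52.1 and 52.7 in IEC12 and 25.8, 26.7 and 25.7 in AOC. Only IEC12 stood above the other groups. The log2 fold change was 0.61 against IEC4 (adjusted p = 0.0191) and 0.64 against IEC2 (adjusted p = 0.0157). With equal FPKM totals these differences were 0.40 and 0.36 and passed no longer, with adjusted p from 0.00488 to 0.134 and from 0.00328 to 0.182 over the alternatives. The call against IEC4 was also lost without IEC4 replicate B (0.54), IEC12 replicate B (0.54) or IEC12 replicate C (0.53), and that against IEC2 without IEC2 replicate B (0.59), IEC2 replicate C (0.55) or IEC12 replicate B (0.56). AOC was below IEC12 by 0.82 on the log2 scale (SE 0.16, adjusted p = 0.000769).

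MLXIP (ENSSSCG00000009794, chr14:30575098-30646275), the MLX partner that moves to the nucleus when glucose is plentiful, was low throughout and did not share the course of TXNIP. It had 2.39, 3.26 and 3.64 FPKM in IEC2, 2.598, 2.38 and 3.06 in IEC4, 1.25, 1.01 and 1.49 in IEC12 and 1.51, 1.70 and 1.49 in AOC. Every IEC2 and IEC4 library lay above every IEC12 and AOC library. MLXIP was lower in IEC12 than in IEC4 (log2 fold change -0.71, SE 0.19, adjusted p = 0.0129) and than in IEC2 (log2 fold change -0.86, adjusted p = 0.005), and the call against IEC4 was lost without IEC12 replicate B (log2 fold change -0.63, adjusted p = 0.0593, and 0.00827 to 0.0593 over the alternatives). AOC and IEC12 overlapped (log2 fold change 0.19, adjusted p = 0.323, and 0.0451 with median-of-ratios scaling). MLXIPL (ENSSSCG00000007710, chr3:10898675-10934257), its relative of liver and fat, was listed at 0 in all AOC libraries and reached 0.227 FPKM at most, in IEC4 replicate C. It passed no filter on low values and was not tested.

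**Figure D2:**
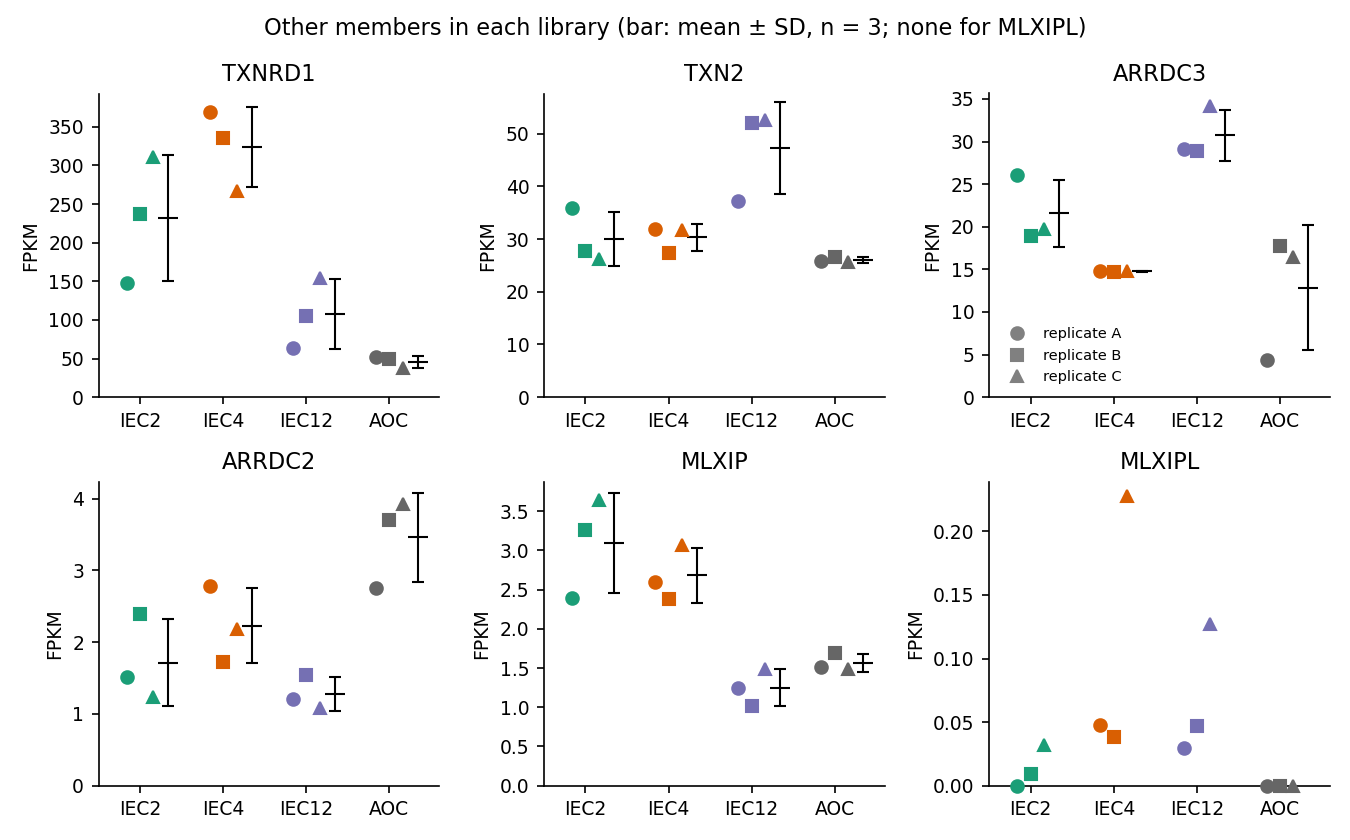
FPKM of the other 6 members found, in each library, by group, on linear axes from 0; points are libraries, their shape is the replicate letter and bars are the mean ± SD of 3 libraries, drawn for every gene but MLXIPL. TXNRD1 is at 37.2 to 51.5 in AOC and 267 to 370 in IEC4, and ARRDC3 in AOC replicate A, at 4.41, lies below the other AOC libraries.

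TXNIP was tested only between AOC and IEC12, groups that the stated rule for the set did not use. The members were nonetheless chosen with earlier results of these data known, so the test may not be independent of that choice. TXNIP was 2.55 times lower in the endothelial line, with no overlap (log2 fold change -1.32, SE 0.47, adjusted p = 0.0295 in limma). This test takes its spread from all 12 libraries, and the IEC4 libraries widen it. Without IEC4 replicate C the adjusted p was 0.000212 and with only the 2 groups 0.00119. It was 0.132 with a pseudocount of 0.1, 0.0622 without a filter on low values, and 0.0652, 0.0641 and 0.0998 without IEC12 replicate B, IEC12 replicate C and AOC replicate C.

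Of the 8 members found, 7 passed the filter on low values. IEC4 against IEC2 chose the set, so no member is called there. In that contrast TXNIP, ARRDC4 and ARRDC3 lay below day 2 without overlap, a description from which nothing is read, and 37.3% of all genes had an adjusted p under 0.05 (24.8% higher, 12.5% lower). Between IEC12 and IEC4, 5 of the 6 members tested passed, against 44.2% of all genes (17.3% higher, 26.9% lower), with ARRDC4, ARRDC3 and TXN2 higher on day 12 and TXNRD1 and MLXIP lower. Between IEC12 and IEC2, 5 of 6 passed, against 43.6% of all genes (24.2% higher, 19.3% lower), with ARRDC3 and TXN2 higher and ARRDC4, TXNRD1 and MLXIP lower. This count was 2 without IEC2 replicate B, without IEC2 replicate C or without IEC12 replicate B. The count for IEC12 against IEC4 was 3 without IEC12 replicate B. Between AOC and IEC12, 6 of 7 passed, against 58.5% of all genes (22.4% higher, 36.2% lower), 5 of them lower in AOC and ARRDC2 higher. The libraries of the groups did not overlap for 3 of 7 members in IEC4 against IEC2, 6 of 6 in IEC12 against IEC4, 4 of 6 in IEC12 against IEC2 and 6 of 7 in AOC against IEC12, beside 53.5%, 56.3%, 54.4% and 66.3% of all genes. With the study's stricter limits (p and adjusted p under 0.001, log2 fold change over 3 in size), which 1.18%, 0.939%, 1.22% and 4.41% of all genes passed, no member tested passed in the last 3 of these comparisons.

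**Figure D3:**
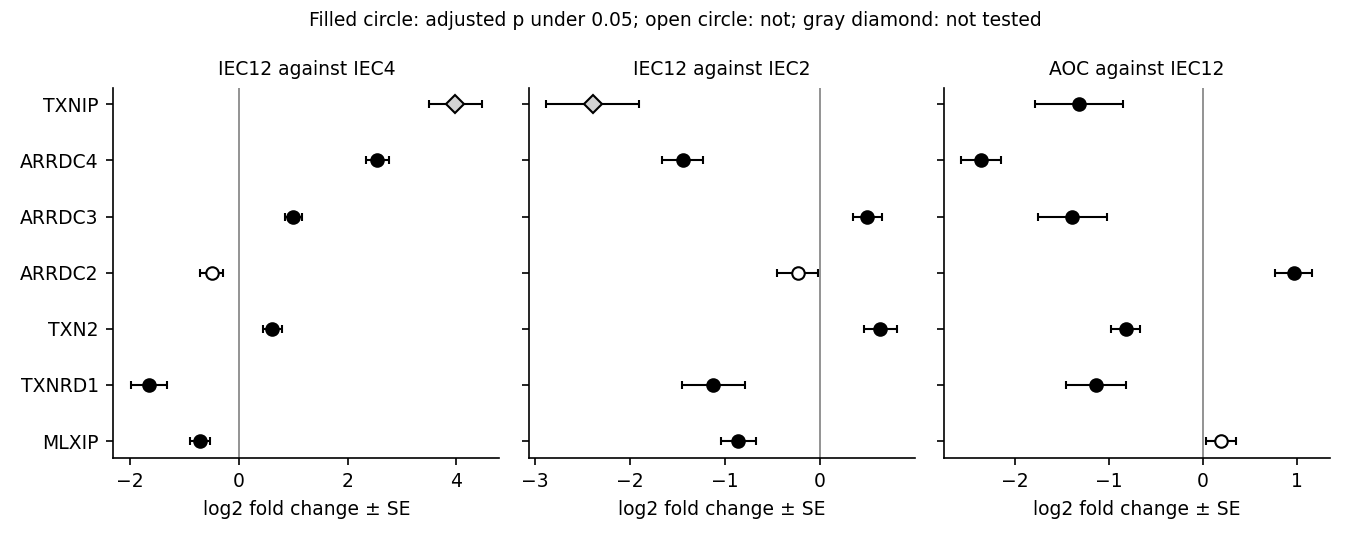
Log2 fold change on log2(FPKM + 1), with its SE, of 7 members in 3 comparisons; filled circles have an adjusted p under 0.05, open circles do not and gray diamonds were not tested. ARRDC4 is at 2.55, -1.44 and -2.36, and ARRDC2 lies above 0, at 0.96, only in AOC against IEC12.

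Among the 11052 other genes, those whose levels followed TXNIP most closely across the 12 libraries were ST8SIA4 (a polysialyltransferase, Pearson r = 0.96), NFYB (a subunit of the CCAAT-binding factor NF-Y, 0.95), L3MBTL3 (a reader of methylated lysine, 0.94), IFNAR2 (an interferon receptor chain, 0.92) and C8orf76 (0.92). Within the 9 IEC libraries these came 10th, 13th, 37th, 32nd and 50th, so none of the 5 was kept among the first 5, and 2 were kept with Spearman's rho. The libraries fall into 4 groups, so these values describe a shared order of groups, and they carry no test. NFYB had 38.0 to 43.6 FPKM in IEC2, 13.1 to 16.5 in IEC4, 29.6 to 33.2 in IEC12 and 20.3 to 25.8 in AOC. ARRDC4 came 11th (r = 0.90), and within the 9 IEC libraries it came 7th (r = 0.98). Of the other members, ARRDC3 had an r of 0.38 (0.56 in the 9 IEC libraries, Spearman's rho 0.71 over all 12), TXN2 0.16, MLXIP 0.11, TXNRD1 -0.12 and ARRDC2 -0.38 with TXNIP. Genes among the most like ARRDC4 included KBTBD8 (a ubiquitin ligase adaptor, r = 0.97) and TBCE (a tubulin chaperone, 0.96).

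**Figure D4:**
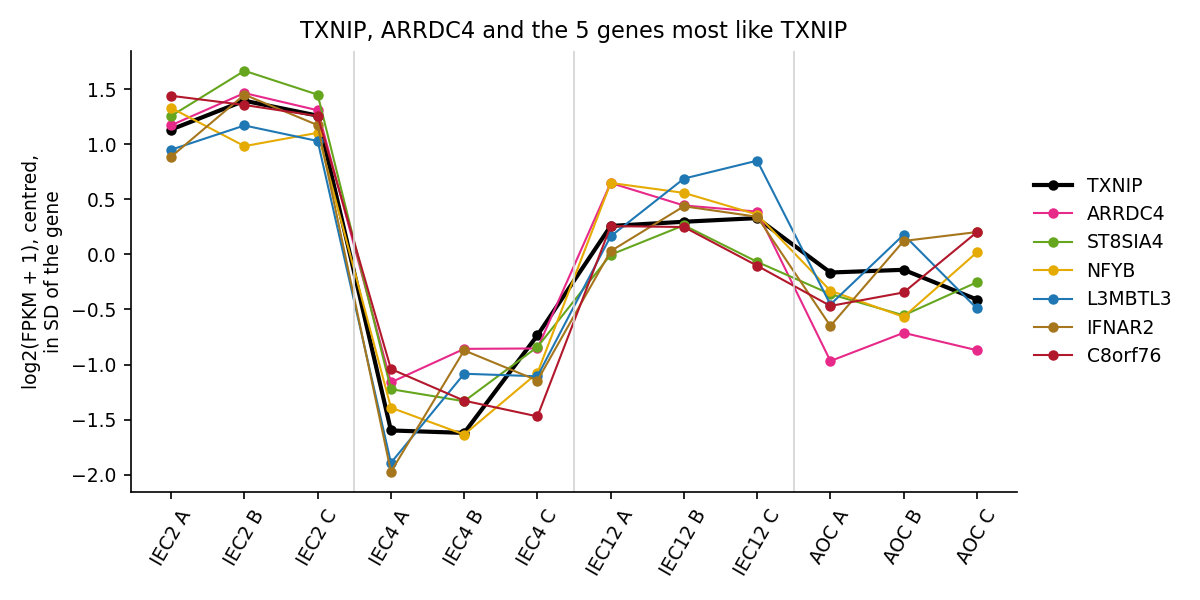
log2(FPKM + 1) of TXNIP, ARRDC4 and the 5 genes most like TXNIP in the 12 libraries, each centred on its mean and divided by its SD over the libraries. All 7 genes are highest in IEC2 and, but for ARRDC4, lowest in IEC4; ARRDC4 is about as low in AOC, at 1.37 to 2.24 FPKM, as in IEC4, at 0.872 to 1.72.

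Of the 3 RefSeq genes on either side of TXNIP, 3 have values here, and the genes directly beside it were not analysed here. FCGR1A, 3 places before it, was at 1.69 to 2.59 FPKM on day 2, 2.72 to 3.42 on day 4 and 3.46 to 3.64 on day 12. LIX1L, 3 places after it, was at 2.17 to 3.65, 3.45 to 4.92 and 4.26 to 4.68 FPKM. ANKRD34A, 2 places after it, did not pass 0.949 FPKM in any library, with means of 0.781 on day 2, 0.470 on day 4 and 0.526 on day 12.

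Other genes of the same pathways were counted in 6 lists. The counts are to be read beside the shares of all genes called, 17.3% higher and 26.9% lower for IEC12 against IEC4 and 22.4% higher and 36.2% lower for AOC against IEC12. For IEC12 against IEC4, the list whose median lay farthest from that of all genes was that of NRF2, its inhibitor KEAP1 and its textbook targets beside TXNRD1. In that comparison 11 of the 12 tested fell and none rose, with a median log2 fold change of -1.64 against -0.15 for all genes, of which 26.9% were called lower; 10 fell with median-of-ratios scaling and 12 with equal totals. OSGIN1, an oxidative stress response gene, went from 31.9 to 34.8 FPKM in IEC4 to 0.204 to 1.10 in IEC12 (log2 fold change -4.54, adjusted p = 3.13e-05). SLC7A11, the cystine importer that feeds glutathione synthesis, went from 25.2 to 42.5 FPKM to 1.25 to 2.23 (log2 fold change -3.73, adjusted p = 1.56e-05). The quinone reductase NQO1 went from 707 to 817 FPKM to 54.5 to 86.4 (log2 fold change -3.40, adjusted p = 2.46e-05). NFE2L2 itself fell by 0.54 on the log2 scale (adjusted p = 0.00339). TXNRD1 fell in the same comparison. The epithelial markers moved alongside, from a sum of 526 to 1495 FPKM in IEC4 to 41.8 to 86.6 in IEC12, and their part in these falls was not tested.

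**Figure D5:**
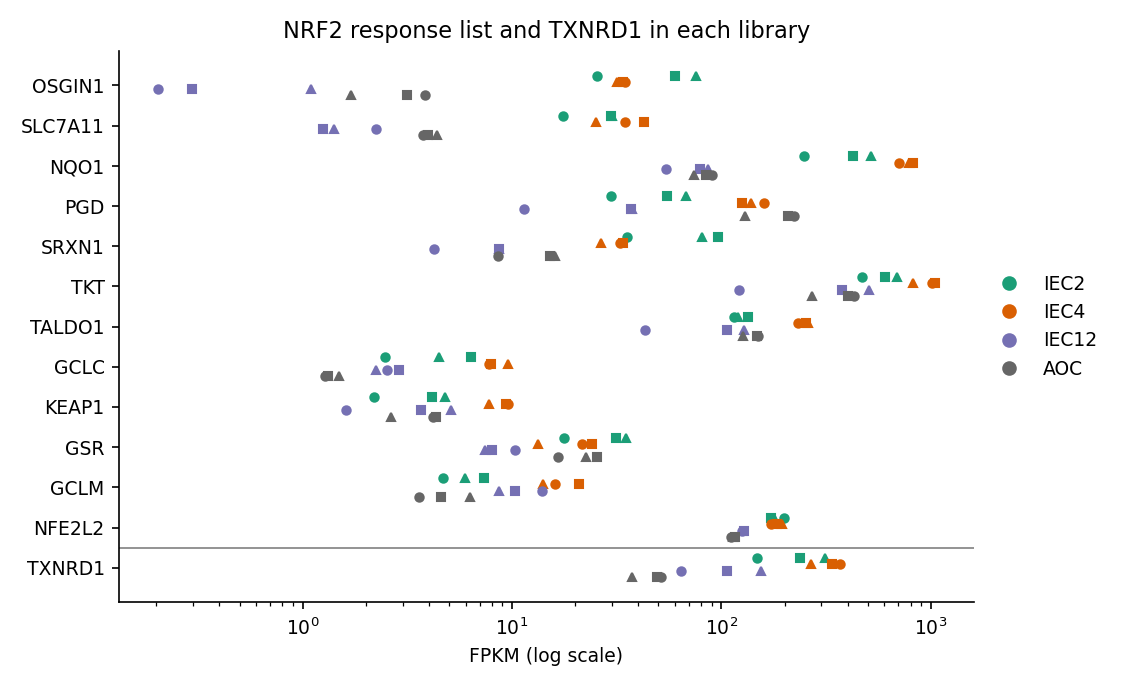
FPKM, on a log axis, of the 12 genes of the NRF2 list that passed the filter and, below the line, of TXNRD1, in each library; colours are groups and point shapes are replicates. SLC7A11 lies at 25.2 to 42.5 in IEC4 and 1.25 to 2.23 in IEC12, and TXNRD1 at 267 to 370 and 63.8 to 155.

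The NRF2 list was not lower as a set in AOC, a separate line, than in IEC12. Between AOC and IEC12, 4 of 12 genes were higher and 2 lower in AOC, and 7 higher and 1 lower with median-of-ratios scaling. The median log2 fold change of the list was 0.54, against -0.21 for all genes. It rested in part on IEC12 replicate A, where PGD was at 11.4 FPKM against 36.8 and 37.6 in replicates B and C. Without that library the median was 0.13, with 4 higher and 1 lower. PGD, which makes NADPH in the pentose phosphate pathway, was at 129 to 222 FPKM in AOC and 11.4 to 37.6 in IEC12 (log2 fold change 2.80, adjusted p = 0.000122), and OSGIN1 was also higher in AOC (log2 fold change 1.35, adjusted p = 0.00682). The glutamate-cysteine ligase subunits were lower, GCLM by 1.04 on the log2 scale (adjusted p = 0.00222) and GCLC by 0.58 (adjusted p = 0.0481). The GCLC call was lost in 10 of its 14 alternatives, among them without any 1 library of AOC or IEC12 and without IEC4 replicate C (-0.65 to -0.51, adjusted p = 0.0519 to 0.136).

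In the thioredoxin system beyond the members, 3 of 18 genes rose and 7 fell from IEC4 to IEC12, beside 17.3% and 26.9% of all genes, and the median log2 fold change was -0.02. With median-of-ratios scaling 3 rose and 4 fell (median 0.16), and with equal totals the median was -0.22. GLRX5, a mitochondrial glutaredoxin of iron-sulfur cluster assembly, rose from 4.02 to 6.43 FPKM to 25.7 to 34.4 (log2 fold change 2.24, adjusted p = 7.69e-05), and PRDX4, the peroxiredoxin of the endoplasmic reticulum, rose by a log2 fold change of 0.82 (adjusted p = 0.00276). The sulfiredoxin SRXN1, which is also on the NRF2 list, fell by 2.02 (adjusted p = 0.002). The mitochondrial reductase TXNRD2 fell from 5.82 to 10.4 FPKM to 0.692 to 3.89 (log2 fold change -1.42, adjusted p = 0.0183), and that call was lost without IEC4 replicate A (-1.26, adjusted p = 0.0668) or B (-1.37, adjusted p = 0.0569), the range over its alternatives being 0.0115 to 0.0668. Between AOC and IEC12, 5 of 19 were higher in AOC and 8 lower, a balance that turned to 7 and 5 with median-of-ratios scaling and to 5 and 5 without AOC replicate B. TXNL1, a thioredoxin-like protein of the proteasome, was at 120 to 128 FPKM in AOC and 31.7 to 34.1 in IEC12 (log2 fold change 1.89, adjusted p = 5.1e-08). TXNDC17, at 6.16 to 8.30 FPKM in AOC and 0.532 to 1.81 in IEC12, passed the filter only through AOC, and without it 4 of 18 were higher. The methionine sulfoxide reductase MSRB2 and nucleoredoxin, NXN, were lower, by 2.47 (adjusted p = 4.06e-07) and 2.40 (adjusted p = 1.18e-06). The other methionine sulfoxide reductases of the list were mixed. MSRB3 was higher in AOC, at 43.4 to 55.8 FPKM against 8.59 to 17.2 (log2 fold change 1.85, adjusted p = 1.34e-05). MSRA was lower (-0.58, adjusted p = 0.00854), and MSRB1 was not called (0.35, adjusted p = 0.444).

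In the MYC and MLX network, which holds the partners of MLXIP, 0 of 7 genes rose and 3 fell from IEC4 to IEC12, with 1 higher under median-of-ratios scaling and 1 call in all without IEC4 replicate A or without IEC4 replicate B. MYC passed the filter in these libraries only through IEC4, and without it 2 of 6 fell. MYC was at 2.40, 9.64 and 17.5 FPKM in IEC4, at 0, 0 and 0.16 in IEC12 and at 47.2 to 80.8 in AOC, which made it the gene of this list with the greatest difference between AOC and IEC12 (log2 fold change 5.85, adjusted p = 6.44e-07). MXD1, a MYC antagonist, fell by 1.37 from IEC4 to IEC12 (adjusted p = 0.00574). MXI1, another antagonist, was at 17.1 to 21.1 FPKM in IEC12 and 0.808 to 1.68 in AOC (log2 fold change -3.21, adjusted p = 4.71e-07), and MGA was also lower in AOC (log2 fold change -0.74, adjusted p = 0.00539). In all, 1 of 7 was higher in AOC and 3 were lower, or 5 without IEC12 replicate A and 2 without any 1 of IEC12 replicates B and C and AOC replicates B and C or with median-of-ratios scaling.

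Of the 16 genes listed for glucose uptake and the carbohydrate response, 14 were found and 11 tested. The glucose transporters SLC2A1 and SLC2A3 were not found and SLC2A4 did not pass the filter. SLC2A8 was the only glucose transporter tested, and it was not called between IEC12 and IEC4 (log2 fold change -0.80, adjusted p = 0.213). Of these genes, 2 of 11 rose and 6 fell from IEC4 to IEC12, and 5 were called in all without IEC4 replicate B. The rises, of ELOVL6 (log2 fold change 0.54, adjusted p = 0.0161) and GPD1 (0.48, adjusted p = 0.0409), were small, and neither passed with equal totals. The call on ELOVL6 was also lost without IEC4 replicate B (0.52). That on GPD1 was lost without any 1 of IEC4 replicates A and B and IEC12 replicates A, B and C (0.42 to 0.50). The GPD1 call was also lost without a filter on low values (adjusted p = 0.0518). It was lost with only the 2 groups (adjusted p = 0.064) and with a replicate block (adjusted p = 0.0617). Over the alternatives the adjusted p was 0.00766 to 0.106 for ELOVL6 and 0.0137 to 0.154 for GPD1. Malic enzyme ME1 was at 25.8 to 30.5 FPKM in IEC4, 2.42 to 3.95 in IEC12 and 19.9 to 29.5 in AOC, so it fell to day 12 (log2 fold change -2.88, adjusted p = 1.54e-05) and was higher in AOC (2.74, adjusted p = 3.64e-07). The fatty acid synthase FASN fell as well (log2 fold change -2.34, adjusted p = 0.00595). Between AOC and IEC12, 5 of 11 were higher in AOC and 2 lower, and 7 and 2 with median-of-ratios scaling. GPD1, which makes glycerol phosphate, was higher (log2 fold change 1.97, adjusted p = 2.61e-07), and the hexokinase HK2 and the elongase ELOVL6 were lower, by 1.64 (adjusted p = 1.37e-05) and 1.38 (adjusted p = 3.3e-06). The hexokinase HK1 went the other way (log2 fold change 1.67, adjusted p = 0.000462). HK1 was at 30.8 to 43.3 FPKM in AOC and 7.06 to 17.6 in IEC12, and HK2 at 1.72 to 2.11 and 6.56 to 10.4.

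Among other arrestins and the NEDD4-family ligases that alpha-arrestins recruit, 0 of 6 rose and 3 fell from IEC4 to IEC12, beside 17.3% and 26.9% of all genes, with 1 fall under median-of-ratios scaling, without IEC4 replicate A or without IEC12 replicate B. The ligase WWP2, at 1.69 to 2.06 FPKM in IEC4 and 0.241 to 0.962 in IEC12, passed the filter only through IEC4, and without it 2 of 5 fell. The ligase WWP1 fell by 0.82 (adjusted p = 0.0266), and its call was lost with that scaling, without a filter on low values and without IEC4 replicate A (-0.87), IEC4 replicate B (-0.66), IEC12 replicate B (-0.80) or IEC12 replicate C (-0.75), with adjusted p of 0.0136 to 0.1 over the alternatives. In AOC against IEC12, NEDD4 was higher (log2 fold change 1.01, adjusted p = 0.000346) and 3 of 6 were lower, among them ITCH (-0.98, adjusted p = 0.00192) and WWP1 (-0.94, adjusted p = 0.00496).

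Of the partners and regulators of TXNIP, 3 of 8 rose and 1 fell from IEC4 to IEC12, beside 17.3% and 26.9% of all genes. The rises included the importin KPNA2 (log2 fold change 1.68, adjusted p = 1.44e-05) and NFYB (1.06, adjusted p = 0.000301). DDIT4, a stress-induced inhibitor of mTORC1 that binds TXNIP, was at 146 to 216 FPKM in IEC2, 86.9 to 118 in IEC4, 3.73 to 18.8 in IEC12 and 2.47 to 5.49 in AOC, and it fell from IEC4 to IEC12 by 3.21 on the log2 scale (adjusted p = 0.00046). Between AOC and IEC12, 3 of 10 were higher in AOC and 5 lower, and 3 and 3 with median-of-ratios scaling. NLRP3 and CDKN1B passed the filter only through AOC, and without them 1 of 8 was higher and 5 were lower. The 8 calls were 5 without IEC12 replicate B or C, 4 without AOC replicate B and 3 without AOC replicate A or C. NLRP3, an inflammasome sensor reported to bind TXNIP, was listed at 0 in all 9 IEC libraries and at 1.59 to 2.02 FPKM in AOC, and CDKN1B was at 0.273 to 0.355 FPKM in IEC12 and 1.31 to 1.58 in AOC. NFYA and FOXO3 were lower in AOC, by 1.21 (adjusted p = 9.51e-05) and 0.90 (adjusted p = 0.000576).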

How the data were processed

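Expression was measured by RNA-seq in 12 libraries, amplified by Smart-Seq2 per the labels. The authors deposited FPKM values per Ensembl gene. The submitters' processing notes name Bowtie2 2.2.3, TopHat2 2.0.12, Cufflinks 2.2.1 and the build susScr11. The annotation release is not given in the sources used here, and read counts are unknown, so no counting interval is given. The relative depths were fitted so that ratios of low values between libraries fell on ratios of whole numbers, and they may be off by a whole factor. After that fit, 65.9% of 2980 such ratios fell within 0.02 (log2) of ratios of whole numbers, against 17.5% for an even spread. The same ratios set the fit, so this share is no independent check of the depths. Positions were taken from RefSeq for Sscrofa11.1.

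Groups came from sample titles. Values were log2(FPKM + 1), genes reaching an FPKM of 1 in 3 or more libraries of a fit were kept, and limma 3.58.1 (R 4.3.3, lmFit, contrasts.fit, eBayes with trend) gave moderated tests, with Benjamini-Hochberg adjustment over all genes and a limit of 0.05. The 3 induction contrasts used the 9 IEC libraries and AOC against IEC12 used all 12. On simulated data the fit called 58 of 100 genes with a log2 change of 1 and 99 of 100 with a change of 3 for IEC12 against IEC4, with 8 of 10028 unchanged genes called, among 10228 genes tested. Changes were put only into genes with a mean log2(FPKM + 1) over 3. These shares therefore do not cover lower genes such as ARRDC2 and MLXIP. The members and lists were chosen with earlier results of these data known. Named were all members and, of each list, up to 2 genes per direction with the largest called difference without overlap, in IEC12 against IEC4 and AOC against IEC12. NQO1, NFE2L2, HK1, SLC2A8, MSRA, MSRB1 and MSRB3 were named after their values were seen. The alternatives were another pseudocount, no filter, other scalings, only the groups compared, a replicate block, an untied variance, stricter limits and leaving out each library. One gene that the rule on likeness names is not reported here. No sequences were analysed here.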

Additional observations from a re-analysis of the deposited data

How the results depend on the processing

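No called difference of a member or of a gene named by the rule reversed under the alternatives run. With the study's limits (p and adjusted p of 0.001, log2 fold change over 3) the members called fell from 5, 5 and 6 to 0 in each of IEC12 against IEC4, IEC12 against IEC2 and AOC against IEC12, and TXNIP, at -1.32, was not called in the last. All genes called fell to 124 for IEC4 against IEC2, 99 for IEC12 against IEC4, 129 for IEC12 against IEC2 and 487 for AOC against IEC12, from 3932, 4660, 4592 and 6469, and genes of the 6 lists to 0, 4, 4 and 2, from 30, 38, 28 and 42. With equal totals 3 members were called between IEC12 and IEC2. Leaving out 1 library gave 3 to 5 members for IEC12 against IEC4, 2 to 5 for IEC12 against IEC2 and 17 to 24 list genes for IEC4 against IEC2. For TXNIP in AOC against IEC12 it gave -1.44 to -1.10, a pseudocount of 0.1 gave -1.38 (adjusted p = 0.132) and no filter gave -1.32 (adjusted p = 0.0622). Leaving out IEC4 replicate C in the last 2 comparisons was chosen after seeing the data. Beyond the stricter limits and fewer libraries, the causes were not tested. Of the 5 genes most like TXNIP, 2 remained with Spearman's rho and 0 within the 9 IEC libraries.

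Whether the letters A to C pair the samples was not settled. Deviations from the group mean of libraries with the same letter correlated at -0.51 to 0.25. For IEC12 against IEC2 they correlated at 0.25 for A, 0.02 for B and 0.20 for C. The most negative values, -0.37 for A and -0.51 for C, came from AOC against IEC12. With 3 libraries per group these values cannot decide the question, because deviations from a mean of 3 depend on each other. With a replicate block, members called were 5, 5 and 6 in the 3 comparisons tested, all genes called were 3900, 4569, 4496 and 6303, and GPD1 lost its call in IEC12 against IEC4 (adjusted p = 0.0617). Unknown read numbers and low values limit ARRDC2, MLXIP, MLXIPL, TXNIP on day 4 and ARRDC4 on day 4 and in AOC.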
